A study of Mus musculus with 6 samples.

Results

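A set of 9 genes of the optic field and pigment epithelium was examined in RNA-seq libraries of the rostral telencephalic primordium, the tissue at the front of the embryonic forebrain. They were taken by gene symbol, 9 of the 55471 genes in the count files. Of these, 5, namely Six3, Pax2, Vax1, Vax2 and Tbx5, belong to the optic field and optic stalk. The other 4, Otx2, Mitf, Tyrp1 and Dct, are genes of the retinal pigment epithelium. The rule used symbols and no measured value, but the members were chosen with earlier results of these data known. Libraries came from mouse embryos at E11.5. Controls (n = 3, genotype label WT, described in the protocol as Dicer F/F) carried floxed Dicer without Cre. The study describes them as littermates of the mutants, and no label tells which samples share a litter. Rx-Dicer embryos (n = 3, RxCre-Dicer F/F) carried the same floxed alleles and a Cre transgene under regulatory sequences of Rax, also called Rx. The Cre line was kept on CD1 and the floxed line on C57BL/6. Dicer cuts miRNA precursors, so its removal depletes mature miRNAs in the cells where Cre has acted. By the study's account Cre acts strongly in the rostral and ventral telencephalon and weakly in the neocortex at this age. A library may therefore hold recombined and unrecombined cells. No label tells whether a library was made from a single embryo or a pool, so p-values measure only the spread between these samples.

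The vertebrate eye arises from a single field in the anterior neural plate that later evaginates as the optic vesicles. Six3, together with Rax, Pax6, Lhx2 and Six6, sets up this field and the neighbouring anterior forebrain. The vesicle is then divided. Its proximal part becomes the optic stalk, marked by Pax2, Vax1 and Vax2, while its outer layer becomes the pigment epithelium, where Mitf and Otx2 switch on the melanin enzymes Tyr, Tyrp1 and Dct. Several of these genes are also used outside the eye. Six3, Vax1 and Otx2 are transcribed in the ventral and rostral forebrain midline, Pax2 at the boundary of midbrain and hindbrain, and Dct in the dorsal telencephalon of embryos as well as in melanoblasts.

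The 6 libraries held 34471501 to 48373468 counts on genes, with overlapping totals between genotypes. A level of 3 counts, the limit that a count of 0 allows, equalled 0.0620 to 0.0870 CPM (counts scaled to the library total), for counting error only. Dicer1 (chr12:104687742-104751952, minus strand, GRCm38), the targeted gene, had 6355, 7070 and 6270 normalised read counts in controls and 4777, 7002 and 4644 in Rx-Dicer samples (in replicate order 1 to 3, as throughout). Rx-Dicer 2 thus lay at control level. The difference on the log2 scale, -0.26 ± 0.17 (SE), was not called (DESeq2 adjusted p = 0.567). Without Rx-Dicer 2 it was -0.47 with an adjusted p of 0.000881. Leaving out any other sample left Dicer1 uncalled (DESeq2 adjusted p 0.604 to 0.922). Reads from exons outside the deleted segment count for the gene too.

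Six3, Vax1 and Otx2 were higher in Rx-Dicer samples by 2.41, 2.11 and 1.71 times, and no member was called lower. A gene was called where the DESeq2 Wald test gave an adjusted p under 0.05 and it was at least 25% higher or 20% lower, the limits used in the study. Of the 9 members, 6 had enough reads to be tested, and 3 of these were called higher, against 1.75% of all 17128 genes tested. Calls in either direction made up 2.93% of genes. The median log2 fold change of the 6 members was 0.93, while that of all tested genes was 0.00. In 3 members (Six3, Vax1 and Pax2) all Rx-Dicer values lay above all control values, as they did in 8.55% of all genes tested. With edgeR's quasi-likelihood test none of the members was called, and 0.0446% of all genes were. Vax2, Tbx5 and Tyrp1 were too sparse to test. In bulk tissue fewer cells of a type and less RNA per cell cannot be told apart, here and in every value that follows.

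**Figure D1:**
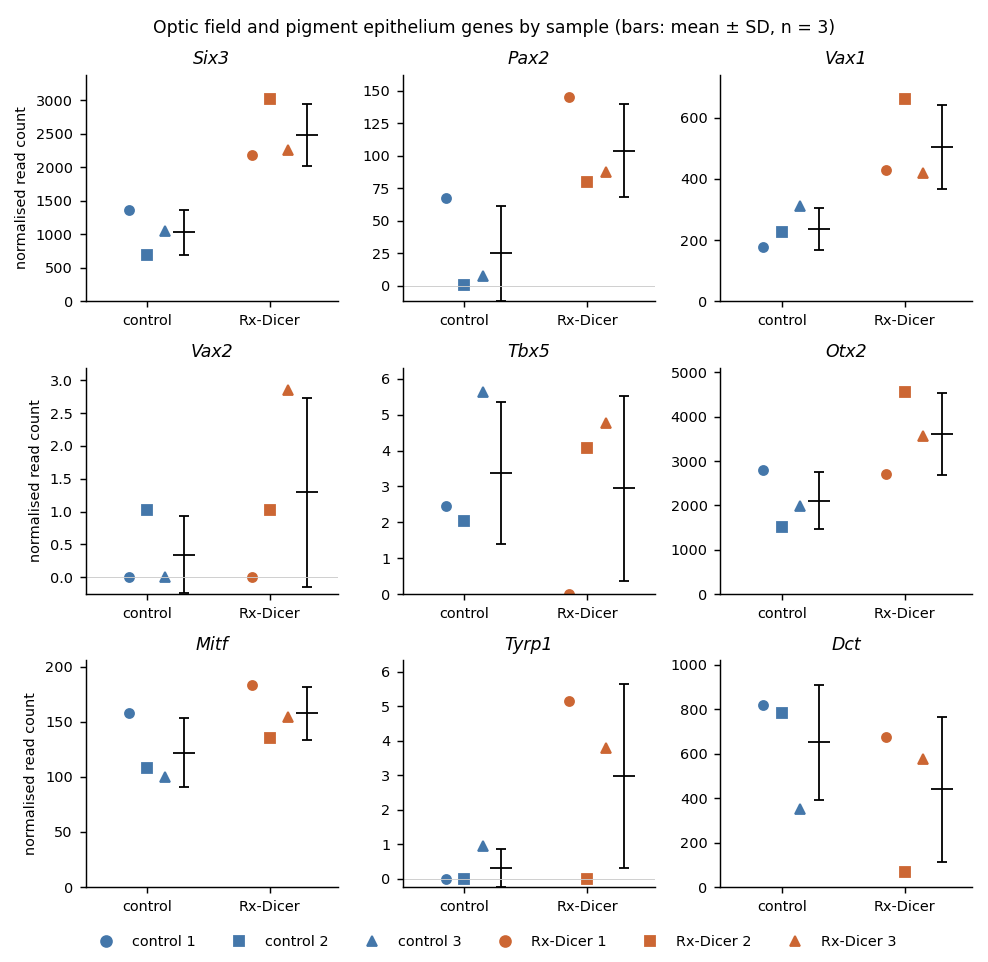
Normalised read counts of the 9 genes in each of the 6 samples (points) with the mean ± SD of each genotype (n = 3, black). The Rx-Dicer points of Six3, Vax1 and Pax2 all lie above the control points, Otx2 overlaps at control 1 and Rx-Dicer 1, and Vax2, Tbx5 and Tyrp1 stay under 6 counts.

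Six3, a homeodomain transcription factor required for the anterior forebrain and the eye field, gave the smallest adjusted p of the members. The gene (ENSMUSG00000038805, chr17:85613608-85629302, plus strand, GRCm38) had 1357, 684 and 1048 normalised counts in controls. In Rx-Dicer samples it had 2177, 3018 and 2247. The lowest Rx-Dicer sample therefore exceeded the highest control, and Rx-Dicer 2 was highest. Group means were 1030 ± 337 and 2481 ± 467 (SD, n = 3 each). On the log2 scale the difference was 1.27 ± 0.22 (SE), and the adjusted p was 6.27e-06 with DESeq2 and 0.133 with edgeR. In each of the 6 fits that left out a sample Six3 remained called, with log2 fold changes from 1.05 to 1.51.

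Six3os1, a non-coding transcript of the opposite strand whose annotated span (chr17:85600651-85618398, minus strand) overlaps that of Six3, was read because it lies within 5000 bases of a member; this neighbour rule was set after values were seen. It had 2599, 1028 and 1278 normalised counts in the control libraries and 3760, 4161 and 3229 in the Rx-Dicer libraries. Its values did not overlap between genotypes either, with control 1 closest to the Rx-Dicer samples. The log2 fold change was 1.19 ± 0.44 (SE), and the adjusted p was 0.137, so it was not called. Without control 1 the adjusted p was 1.40e-19 at a log2 fold change of 1.69. Without control 2 it was 0.0494. Leaving out any other sample left Six3os1 uncalled (DESeq2 adjusted p 0.246 to 0.392). The counting used strand, and so reads of the 2 genes were kept apart. Next in reads among the opposite-strand neighbours was Otx2os1, which had 84.3, 37.7 and 32.9 normalised counts in the control libraries and 30.9, 64.2 and 50.4 in the Rx-Dicer libraries. These ranges overlapped and the log2 fold change was -0.08 ± 0.47 (SE), while Otx2 itself was called.

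Vax1, a homeodomain factor of the optic stalk, ventral forebrain and preoptic area, was higher to a similar degree. The gene (ENSMUSG00000006270, chr19:59166187-59170056, minus strand) had 176, 225 and 312 normalised counts in the control libraries and 429, 662 and 420 in the Rx-Dicer libraries. All Rx-Dicer values exceeded the controls, and Rx-Dicer 2 was again highest. The difference on the log2 scale was 1.08 ± 0.25 (SE), and the adjusted p was 0.00261 with DESeq2 and 0.185 with edgeR. The DESeq2 call was lost without control 2 (adjusted p = 0.0660) and without Rx-Dicer 2 (adjusted p = 0.0510). Its close relative Vax2 (chr6:83711264-83738313, plus strand), which sets the ventral fate of the optic cup, was practically unread. Vax2 had 0, 1 and 0 raw reads in the control libraries and 0, 1 and 3 in the Rx-Dicer libraries, at or under 3 reads in every library, and no difference was detectable at this depth.

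Pax2, the paired-box factor of the optic stalk, was present at low level and split the controls. The gene (ENSMUSG00000004231, chr19:44756045-44837871, plus strand) had 67.2, 1.02 and 7.52 normalised counts in the control libraries and 145, 79.5 and 87.5 in the Rx-Dicer libraries. Control 1 thus lay close to the Rx-Dicer range, and the other controls were nearly empty. The log2 fold change was 2.05 ± 1.35 (SE), with a 95% interval from -0.60 to 4.69 and an adjusted p of 0.587. Leaving out control 1 gave a log2 fold change of 4.58 with an adjusted p of 6.82e-09, on controls of 1 and 8 raw reads. Leaving out any other sample left Pax2 uncalled (DESeq2 adjusted p 0.483 to 0.826).

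Tbx5, a T-box factor that marks the dorsal optic cup, was at the limit of detection. It (chr5:119832668-119885219, plus strand) had 2, 2 and 6 raw reads in the control libraries and 0, 4 and 5 in the Rx-Dicer libraries. The genotypes overlapped, and no fold change is given. Neither of the genes that mark the opposite dorsal and ventral sides of the optic cup, Tbx5 and Vax2, was therefore above a few reads in this tissue.

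Otx2, a homeodomain factor that both specifies the rostral brain and activates pigment epithelium genes, was the most abundant of the 9. The gene (ENSMUSG00000021848, chr14:48657677-48673819, minus strand) had 2802, 1523 and 1997 normalised counts in the control libraries and 2701, 4564 and 3561 in the Rx-Dicer libraries. Control 1 exceeded Rx-Dicer 1, so the genotypes overlapped. The log2 difference was 0.78 ± 0.23 (SE), and the adjusted p was 0.0311 with DESeq2 and 0.262 with edgeR. The call was lost in 4 of the 6 fits that left out a sample, namely those without control 2 (adjusted p = 0.343), control 3 (0.188), Rx-Dicer 2 (0.279) and Rx-Dicer 3 (0.158). Otx1, its relative in the pigment epithelium list, gave a log2 fold change of -0.09 ± 0.23 (SE) and was not called.

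Mitf, the basic helix-loop-helix factor that specifies pigment cells, overlapped between genotypes. The gene (ENSMUSG00000035158, chr6:97807052-98021349, plus strand) had 158, 108 and 99.6 normalised counts in the control libraries and 184, 136 and 154 in the Rx-Dicer libraries. Control 1 lay above the lower Rx-Dicer samples. The log2 fold change was 0.38 ± 0.27 (SE), with a 95% interval from -0.14 to 0.91 and an adjusted p of 0.628.

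Dct, dopachrome tautomerase, and Tyrp1 encode related melanin enzymes and are textbook targets of Mitf, yet their levels lay far apart. Dct (ENSMUSG00000022129, chr14:118012790-118052244, minus strand) had 817, 783 and 353 normalised counts in the control libraries and 676, 68.3 and 575 in the Rx-Dicer libraries. Rx-Dicer 2 stood far below the others, and the genotypes overlapped. The log2 fold change was -0.57 ± 0.91 (SE), with a 95% interval from -2.35 to 1.21 and an adjusted p of 0.909. Without Rx-Dicer 2 the log2 fold change was -0.05. Tyrp1 (chr4:80834123-80851719, plus strand) had 0, 0 and 1 raw reads in the control libraries and 6, 0 and 4 in the Rx-Dicer libraries, too few for a comparison.

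The promoters of Dct and Tyrp1 are shown because both carry letters that the Mitf and Otx2 proteins are known to bind, although Tyrp1 had 11 raw reads over the 6 libraries against 3274 for Dct. Each window runs from 250 bases before to 50 bases after the RefSeq start of transcription (GRCm38.p6), 5′ to 3′ on the strand of the gene. Capitals mark CATGTG, the E-box form known from Mitf targets, and TAATCC, the form known from Otx factors, on either strand. These motifs do not overlap each other here.
Dct chr14:118052197-118052496 minus strand: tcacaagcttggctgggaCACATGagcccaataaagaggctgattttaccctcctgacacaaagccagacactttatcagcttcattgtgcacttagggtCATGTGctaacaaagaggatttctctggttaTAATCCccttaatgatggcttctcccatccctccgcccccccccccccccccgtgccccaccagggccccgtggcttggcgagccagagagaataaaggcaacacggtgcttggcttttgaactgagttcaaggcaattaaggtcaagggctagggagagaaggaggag
Tyrp1 chr4:80833963-80834262 plus strand: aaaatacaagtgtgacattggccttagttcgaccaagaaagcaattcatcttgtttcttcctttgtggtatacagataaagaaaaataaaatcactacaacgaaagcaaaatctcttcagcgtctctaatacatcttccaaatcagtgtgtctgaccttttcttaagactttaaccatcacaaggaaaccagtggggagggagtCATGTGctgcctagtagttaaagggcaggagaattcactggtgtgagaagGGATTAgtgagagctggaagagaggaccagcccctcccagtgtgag
In Dct the E-boxes began 232 and 150 bases before the start site, and in Tyrp1 the E-box began 46 bases before it. Promoter windows were at hand for 7 members with 14 start sites, some of them overlapping, and not for Vax2 and Tbx5. CATGTG was found in 3 of these 14 windows and TAATCC in 4, against 14.2% and 7.06% of all 32851 windows. Only Dct and Tyrp1 among the members held both in the same window, as did 1.03% of all windows. A match of letters shows neither binding nor use.

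The 3′ UTRs of the members were searched for seed matches, since loss of Dicer can lower miRNAs. In this tissue at E11.5 the study found only a few mature miRNAs significantly reduced, most of them of the let-7 family. Whether the families printed below were present or reduced in these samples was not examined here. The search covered 10 families known from retina or forebrain, and the 4 with 7 or 8 matching bases in Vax2 or Mitf are printed to show the matched letters, with bases 2 to 8 (the seed) in capitals. MiR-204 is abundant in pigment epithelium, and miR-96, miR-137 and miR-125b are expressed in retina or brain. None of these 4 families shared a seed.
miR-204-5p: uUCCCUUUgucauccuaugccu
miR-137-3p: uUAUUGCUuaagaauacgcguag
miR-96-5p: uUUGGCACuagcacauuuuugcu
miR-125b-5p: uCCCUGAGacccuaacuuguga
The sites are given 5′ to 3′ with matching bases in capitals, together with the GRCm38 position of the capitals. An 8-base match has an A after the 7 bases that pair with the seed.
Vax2, miR-204, chr6:83738283-83738290: actgaaataaaAAAGGGAActggtcccag
Mitf, miR-96, chr6:98019994-98020001: ttttactgacaGTGCCAAAttctttcatc
Mitf, miR-137, chr6:98021017-98021024: gtaaacaataaAGCAATAAgaataaacaa
Mitf, miR-137, chr6:98021236-98021242: ctgttgggtacAGCAATActttctgtatg
Mitf, miR-125b, chr6:98020849-98020855: cagaattgtatCTCAGGGttggacctccg
Tbx5 held a 7-base let-7 match. A 3′ UTR was annotated for 8 members and not for Vax1. The 7-base words occurred in 14.9% (miR-204), 9.61% (miR-137), 7.88% (miR-96) and 13.0% (miR-125b) of all 21004 annotated 3′ UTRs. Mitf, with a UTR of 3174 bases against a median of 953, held 4 sites. No seed match was found in Otx2, Pax2, Dct or Tyrp1. Sites and calls were not compared.

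Levels can be set side by side between genes only per length, here as TPM, counts per exonic base scaled to a common total. In controls Otx2 was highest at 30.6 ± 9.14 TPM (SD, n = 3), followed by Vax1 (13.1 ± 4.24), Six3 (11.6 ± 3.76), Dct (6.72 ± 2.52), Mitf (1.20 ± 0.286) and Pax2 (0.283 ± 0.405). Control values of Vax1 and Six3 overlapped, as did those of Six3 and Dct, while Otx2 lay above Vax1 and Mitf above Pax2 in every control. In Rx-Dicer samples Otx2 reached 53.7 ± 17.2 TPM, Six3 28.7 ± 7.80 and Vax1 28.6 ± 10.2, and Dct was at 4.52 ± 3.38. The gap between Six3 and Vax1 was smaller than their spread. Vax1 is annotated with 1117 exonic bases and little untranslated sequence, and how this affects its TPM was not tested. Vax2, Tbx5 and Tyrp1 reached at most 0.127, 0.0768 and 0.117 TPM in any library.

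**Figure D2:**
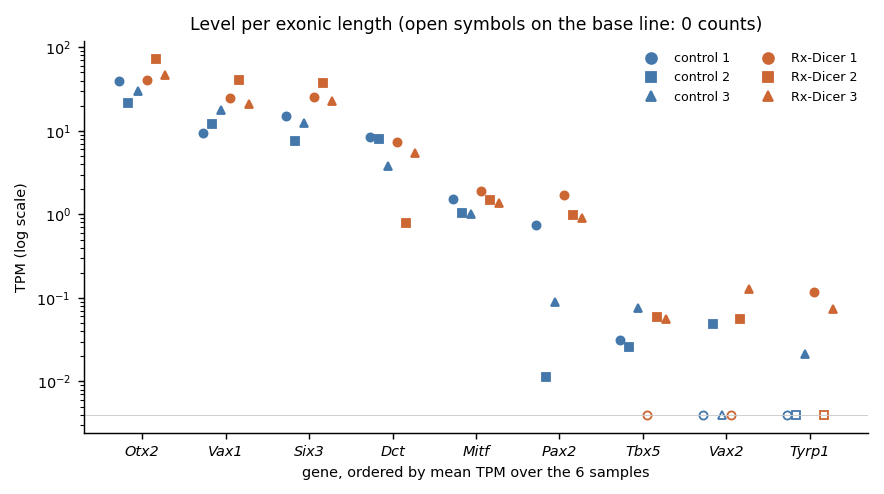
TPM of the 9 genes (log scale) in each sample, ordered by mean over all samples, with controls in blue and Rx-Dicer in orange and open symbols for libraries with 0 reads. Otx2, Vax1 and Six3 lie highest, Dct spreads over an order of magnitude with Rx-Dicer 2 lowest, and Pax2 spreads within the controls.

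The members did not vary as a block. Over the 6 samples, Pearson's r of log2 normalised counts was 0.95 between Six3 and Otx2, 0.90 between Six3 and Pax2, 0.80 between Six3 and Vax1 and 0.48 between Pax2 and Vax1. Dct gave -0.75 with Vax1, -0.62 with Otx2, -0.56 with Six3, -0.21 with Pax2 and 0.18 with Mitf. These are descriptions, since the samples share the genotype split and their libraries. Among 14164 genes with a mean of at least 50 normalised counts, those most like each member in pattern were Klhl20, Tm9sf3 and L3mbtl3 for Six3 (r = 0.987 to 0.998), Ica1, Kdm4c and Tmem47 for Otx2 (0.989 to 0.999), and Zfp592, Mia3 and Wnk1 for Vax1 (0.989 to 0.991). For Pax2 they were Fgf18, Grin2d and Sparc (0.990 to 0.993), for Mitf Ifih1, Glis3 and Nav2 (0.989 to 0.996), and for Dct Tle5, Unc119 and Gm5451 (0.990 to 0.991). With 6 samples, 49 to 78 genes reached an r of 0.95 or more with each member.

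The next question was whether other genes of eye development moved in the same way as the members. Lists were taken from general knowledge, but with earlier results of these data known. These 4 lists held 61 further genes, of which 46 could be tested. Of these, 2 were called higher and 5 lower, against 1.75% and 1.18% of all genes. Their median log2 fold change was 0.07. Both higher calls fell in the eye field and neural retina list, the lower calls fell in 3 of the 4 lists, and edgeR called none of the 61. The summed level of the optic stalk and cup list was lower without overlap, at 1810 to 1891 CPM in controls and 1433 to 1571 in Rx-Dicer samples. So was that of the pigment epithelium list, at 367 to 399 CPM in controls and 289 to 329 in Rx-Dicer samples. Summed levels of the remaining companion lists overlapped between genotypes.

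The eye field and neural retina list held 16 genes, 13 of them tested, with 2 called higher, 1 lower and a median log2 fold change of 0.22. Fzd5, a Wnt receptor of the eye field and ventral forebrain, had 176, 373 and 406 normalised counts in the control libraries and 634, 858 and 992 in the Rx-Dicer libraries. The values did not overlap (log2 fold change 1.38 ± 0.27 SE, DESeq2 adjusted p = 0.000123). Foxd1, a marker of the temporal retina and of the hypothalamic primordium, was 1.63 times higher (log2 fold change 0.70 ± 0.19 SE, DESeq2 adjusted p = 0.0143). It lost its call without control 1, control 2, Rx-Dicer 2 or Rx-Dicer 3 (adjusted p 0.0508 to 0.152). Pax6, a regulator of both eye and cortex, was lower, with 7210, 6927 and 6726 normalised counts in the control libraries and 5064, 4749 and 5629 in the Rx-Dicer libraries (log2 fold change -0.43 ± 0.12 SE, DESeq2 adjusted p = 0.0127), and lost its call without control 2 (adjusted p = 0.0553). Lhx2 and Sox2, the most abundant genes of the list, were not called, with log2 fold changes of -0.16 ± 0.18 and -0.16 ± 0.17 (SE). The defining genes of the optic vesicle itself were scarce. Rax had 37, 1 and 1 raw reads in the control libraries and 46, 20 and 29 in the Rx-Dicer libraries, and Six6 had 21, 25 and 0 against 73, 16 and 171. Crx, a marker of photoreceptors, reached at most 0.0334 TPM in any library.

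In the list for the optic stalk and the axes of the optic cup, 17 of 18 genes were tested, none was called higher and 3 were called lower (median log2 fold change 0.09). Efnb1 and Efnb2, ephrins of the dorsal retina and of many neural progenitors, were among the abundant genes of the tissue. Efnb1 had 17385, 21588 and 20759 normalised counts in the control libraries and 12568, 13342 and 13864 in the Rx-Dicer libraries, without overlap (log2 fold change -0.59 ± 0.12 SE, DESeq2 adjusted p = 0.000434). Efnb2 was lower to a like degree (log2 difference -0.56 ± 0.12 SE, DESeq2 adjusted p = 0.000959). Cyp26a1, which degrades retinoic acid, had 89.2, 13.2 and 69.5 normalised counts in the control libraries and 9.43, 8.15 and 9.51 in the Rx-Dicer libraries. It showed the steepest called difference of the 61 genes (log2 fold change -2.66 ± 0.66 SE, DESeq2 adjusted p = 0.00518), on few reads. Without control 1 (adjusted p = 0.125) or control 3 (0.0993) it was not called, and without Rx-Dicer 3 it was not tested. Genes whose Rx-Dicer values all lay below the controls, as these 3 did, made up 10.7% of all genes tested. Efnb1, Efnb2 and Cyp26a1 thus differed in the opposite direction to the stalk marker Vax1.

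In the pigment epithelium list 9 of 13 genes were tested, and 1 was called, Sox9, in the lower direction. Sox9, a regulator of pigment epithelium genes that is also abundant in neural progenitors, had 10332, 10685 and 10428 normalised counts in the control libraries and 5949, 7971 and 7992 in the Rx-Dicer libraries (log2 fold change -0.52 ± 0.14 SE, DESeq2 adjusted p = 0.0140). It was not called without control 2 (adjusted p = 0.128) or control 3 (0.0730). Tfec, a relative of Mitf expressed in pigment epithelium, had 12.2, 9.17 and 15.0 normalised counts in the control libraries and 57.5, 31.6 and 27.6 in the Rx-Dicer libraries. These did not overlap, but the adjusted p was 0.0711 (log2 fold change 1.68 ± 0.56 SE). Genes of the differentiated layer were unevenly read. Rpe65, the retinoid isomerase, had no read in any library, and Rgr, a retinal G protein receptor, had 1 read in a single control. Others were present in every library, among them Serpinf1, a secreted factor, with 407 to 1079 raw reads, Best1, a chloride channel, with 29 to 57, and Rdh5, a retinol dehydrogenase, with 29 to 58.

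In the melanin synthesis and melanosome list none of the 7 tested genes was called (median log2 fold change 0.05), and 7 more were too sparse to test. Tyr, tyrosinase, which starts melanin synthesis, had 0, 0 and 9 raw reads in the control libraries and 1, 0 and 0 in the Rx-Dicer libraries. Pmel, the fibril protein of melanosomes, had 22.0, 26.5 and 53.5 normalised counts in the control libraries and 19.7, 12.2 and 12.4 in the Rx-Dicer libraries. All Rx-Dicer values thus lay below the controls, as they did in 10.7% of all genes tested. The log2 difference of -1.20 ± 0.57 (SE) was not called (DESeq2 adjusted p = 0.316). Myo5a and Rab27a, transport proteins with wide expression, were the most abundant of the list and gave log2 fold changes of 0.05 ± 0.12 and -0.15 ± 0.24 (SE). The values of Tyr and Tyrp1 do not bear out the name pigment epithelium for this tissue, in which Otx2, Mitf and Dct were read. Libraries of a single age, E11.5, cannot tell an absent cell type from genes not yet switched on, Rpe65 and Crx among them.

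**Figure D3:**
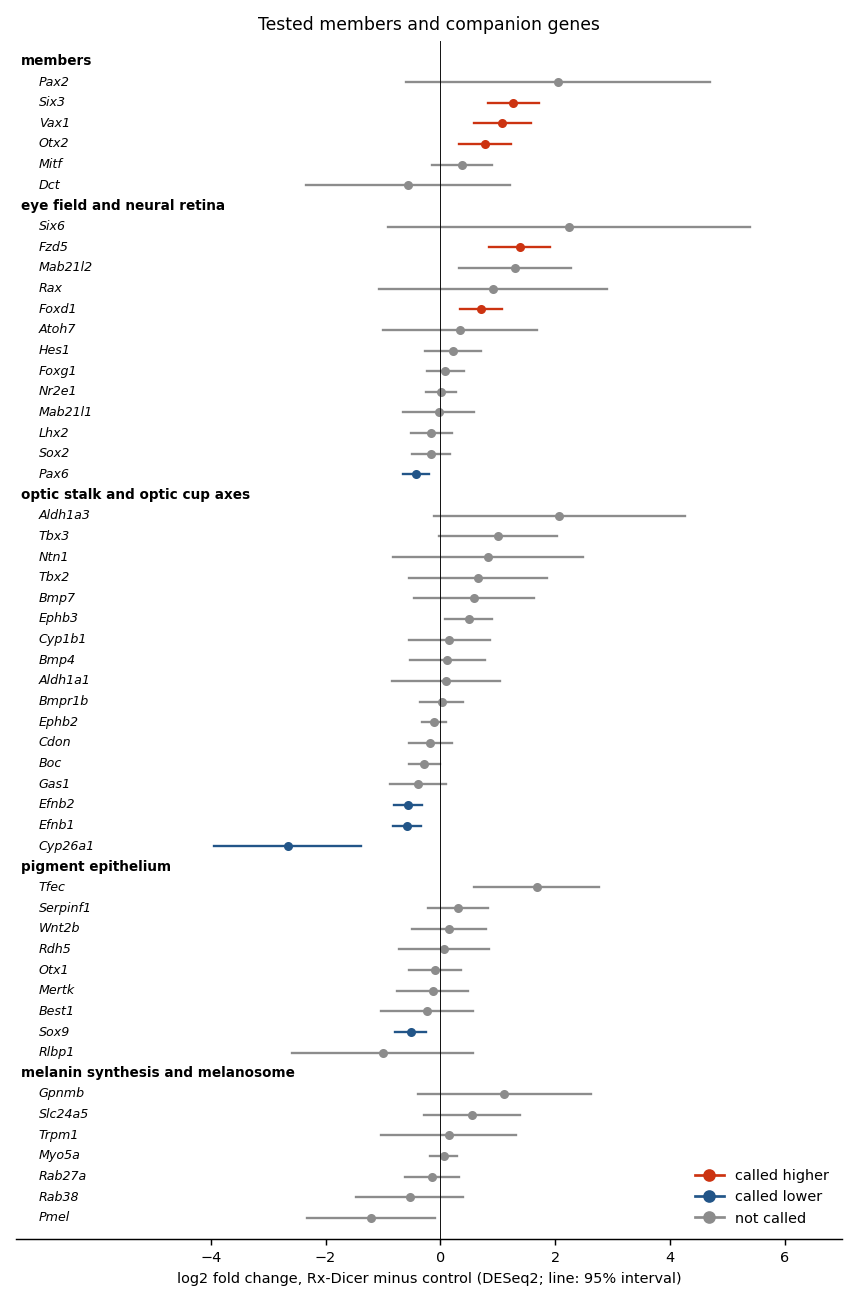
DESeq2 log2 fold changes (Rx-Dicer minus control, points) with 95% intervals (lines) of the 6 tested members and 46 tested companion genes, grouped by list and coloured by call. Six3, Vax1, Otx2, Fzd5 and Foxd1 are called higher, Pax6, Efnb1, Efnb2, Cyp26a1 and Sox9 lower, and the intervals of Pax2, Mitf and Dct cross 0.

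Markers of neighbouring tissues were read in the same libraries. Of the 8 marker lists, the hypothalamus and preoptic list was the one whose summed level did not overlap between genotypes. That level was 32.4 to 43.4 CPM in controls and 74.4 to 117.8 in Rx-Dicer samples. In all 6 tested genes of its 10 the Rx-Dicer values lay above the controls, as they did in 8.55% of all genes tested. DESeq2 called 4 of these 6 higher, against 1.75% of all genes tested, and edgeR called none of them. Fezf1, a zinc finger factor of the forebrain and hypothalamus, carried most of the sum, with 1618, 1276 and 1524 normalised counts in the control libraries and 2043, 2646 and 2620 in the Rx-Dicer libraries (log2 fold change 0.73 ± 0.15 SE, DESeq2 adjusted p = 0.000519). Lhx6, a marker of the ventral telencephalon and preoptic area, gave a log2 fold change of 1.61 ± 0.34 (SE, DESeq2 adjusted p = 0.000440), Otp 3.40 ± 0.74 (0.000696) and Hmx3 2.82 ± 0.88 (0.0472). Otp and Hmx3, both hypothalamic homeodomain factors, stayed under 100 reads in every library. Hmx3 was not called by DESeq2 without control 1 (adjusted p = 0.0637) or control 2 (0.246). It was not tested without control 3, Rx-Dicer 1 or Rx-Dicer 3, and Otp was not tested without Rx-Dicer 1 or Rx-Dicer 3. With the first file alone Otp was not called (DESeq2 adjusted p = 0.0824).

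Nkx2-1, which defines the hypothalamus and the ventral telencephalon, varied widely. It had 3.66, 51.9 and 192 normalised counts in the control libraries and 682, 1882 and 1307 in the Rx-Dicer libraries. The genotypes did not overlap, and Rx-Dicer 2 was highest as for Six3, Vax1 and Otx2. Its adjusted p was 0.0549 with DESeq2 (log2 fold change 3.97 ± 1.26 SE) and 0.171 with edgeR, so it was not called. With DESeq2 it was called without control 1 (adjusted p = 0.00155) or control 3 (0.000987). It was not called without control 2 (adjusted p = 0.329), Rx-Dicer 1 (0.0896), Rx-Dicer 2 (0.232) or Rx-Dicer 3 (0.192). Nkx2-2 and Nkx2-4, other members of the list, reached at most 0.440 and 0.243 TPM. What part the amount of ventral midline tissue in a library had in the values of Six3, Vax1 and Otx2 was not tested.

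For Pax2 the genes set beside it were first those of the most rostral midline, although some roof plate genes showed the same split of controls. Fgf8, the signal of the anterior neural ridge, had 838, 3.06 and 1.88 normalised counts in the control libraries and 993, 621 and 662 in the Rx-Dicer libraries. Fgf17, from the same source, had 4720, 256 and 358 against 4558, 2547 and 2612. Control 1 thus carried these genes at the Rx-Dicer level, as it did Rax (45.2 against 39.5, 20.4 and 27.6 in Rx-Dicer samples) and nearly Pax2, while the other controls had almost none of Fgf8, Rax or Pax2. DESeq2 gave no p-value to Fgf8 or Fgf17, and edgeR adjusted p-values were 0.740 and 0.770. In the roof plate and choroid plexus list, Wnt3a had 519, 1.02 and 23.5 normalised counts in the control libraries against 543, 261 and 231. Folr1 of that list had 70.8, 3.06 and 3.76 against 59.2, 24.5 and 19.0. Its genes Lmx1a, Msx1 and Ttr did not split the controls in this way. Fgf8, Fgf17, Rax and the roof plate genes named here were singled out after their values were seen. What part the amount of rostral midline or roof plate tissue in a library had in the Pax2 values was not tested. Without control 1, 4 members were called higher (Pax2 in addition), and without control 2 or without Rx-Dicer 2 the count was 1, Six3 alone.

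**Figure D4:**
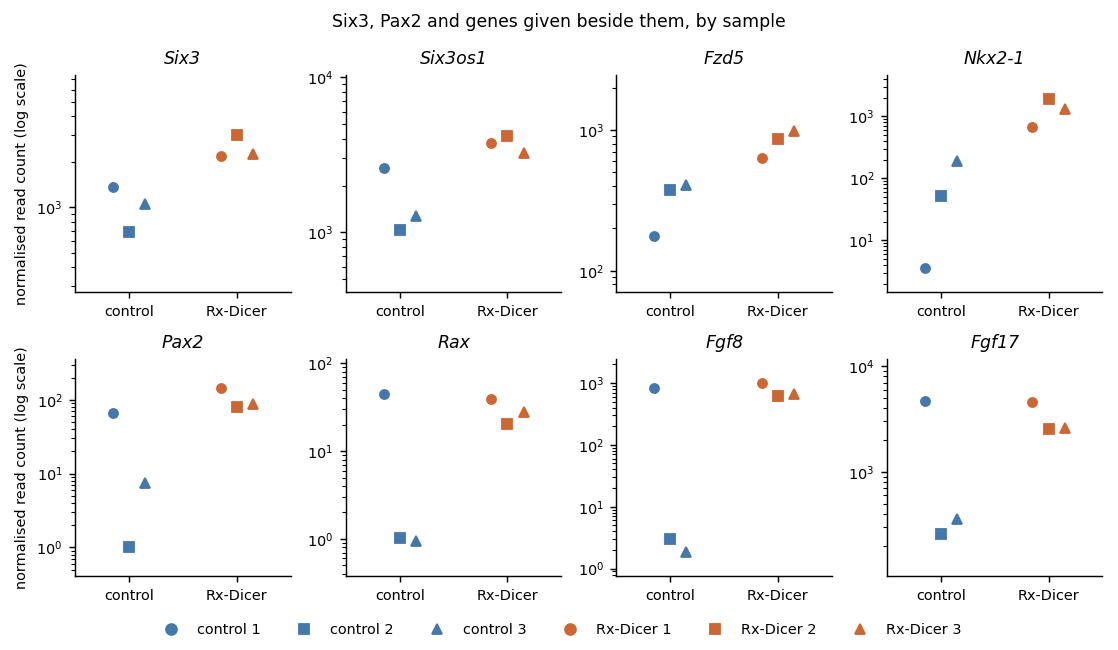
Normalised read counts (log scale) in each sample of Six3, its antisense neighbour Six3os1, Fzd5 and Nkx2-1 (top) and of Pax2, Rax, Fgf8 and Fgf17 (bottom). In the top row every Rx-Dicer point lies above the controls, whereas in the bottom row control 1 lies at or near the Rx-Dicer points and the other controls far below for Pax2, Rax and Fgf8.

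For Dct the genes beside it were those of the dorsal telencephalon and of neural crest. Emx1, a cortical homeodomain factor, had 4764, 5286 and 2156 normalised counts in the control libraries and 4291, 921 and 3615 in the Rx-Dicer libraries. Dct and Emx1 thus both had their lowest value in Rx-Dicer 2 and their next lowest in control 3. Dlx2, a marker of the ganglionic eminences, was highest in those same samples, at 4079 and 3044 against 717 to 1336 in the others. Sox10 and Foxd3, markers of neural crest, were also lowest in Rx-Dicer 2, with 25.5 and 1.02 normalised counts, but were not low in control 3 (203 and 33.8). Rlbp1, a retinoid carrier in the pigment epithelium list, had 470, 491 and 141 normalised counts in the control libraries against 328, 64.2 and 156, the lowest again in Rx-Dicer 2. The neural crest and melanoblast list overlapped between genotypes in its summed level (70.3 to 166.9 CPM in controls, 104.7 to 153.8 in Rx-Dicer samples), with none of its 8 tested genes called, and its melanoblast marker Mlana had at most 2 reads. The part that the balance of dorsal and ventral tissue had in Dct was not tested.

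The remaining marker lists overlapped between genotypes in their summed levels. These were the rostral telencephalon, diencephalon and midbrain, roof plate and choroid plexus, lens and surface ectoderm, head mesenchyme, and blood, endothelium and microglia. Of their 48 tested genes 1 was called, Csf1r, a receptor of microglia and macrophages (log2 fold change 0.98 ± 0.29 SE, DESeq2 adjusted p = 0.0330), whose values overlapped between genotypes and which kept its call in 1 of the 6 fits that left out a sample. Foxe3, a factor of the lens, had no read in any library.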

How the data were processed

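The data were raw read counts per gene, deposited by the authors as 2 files for each of the 6 samples. According to their methods, the authors trimmed reads with Trim Galore (0.6.5 in the submitters' processing notes), aligned them with HISAT2 to GRCm38 and counted Ensembl genes by strand with HTSeq 0.12.4 (union mode, reverse). Reads shared between genes or aligned to several places were not counted for any gene. The tallies of such reads, and of unassigned and unaligned ones, were 24.9 to 31.0% of all reads per sample and were left out. Chi-square per degree of freedom was 1.13 to 1.52 between the 2 files of a sample and 22.5 to 32.6 between samples of a group, so the files were treated as repeat runs and summed.

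Genotypes were compared over all genes with DESeq2 1.42.0 (Wald test) in R 4.3.3, after the study's own methods, with median-of-ratios size factors, genotype as the only term, unshrunken fold changes and Benjamini-Hochberg adjustment with independent filtering. Genes removed by that filter or without a p-value are called not tested. As an alternative, edgeR 4.0.16 was run with its quasi-likelihood test and TMM factors, keeping genes that reached 10 counts in 3 or more samples. Normalised counts are counts over DESeq2 size factors, 95% intervals are the log2 fold change ± 1.96 SE, and TPM used exon lengths of the GENCODE annotation of GRCm38. Similarity of patterns used log2(normalised count + 0.5). Tests were tested on simulated data.

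Members and lists were chosen with earlier results of these data known. Genes named were Dicer1, the members, and in each companion list every called gene and those of highest mean and smallest p. Of the marker lists, called genes are named, and other genes of these lists were chosen after their values were seen, as were Rax, Six6, Crx, Rlbp1, Rpe65, Rgr, Serpinf1, Best1, Rdh5, Tyr, Fgf8 and Fgf17. Promoters and mature miRNAs are RefSeq's for GRCm38.p6, and 3′ UTRs are the longest per gene in GENCODE. Small RNA libraries were not analysed here, and the values of 1 listed gene and 1 sequence match are not reported here.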

Additional observations from a re-analysis of the deposited data

How the results depend on the processing

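Of the 6 tested members, 82 of 96 alternative values kept direction and side of the threshold, 12 lost a call, 2 gained it and none turned direction. The number of members called higher, 3 in the report, was 0 with edgeR, 2 without independent filtering or at a fold minimum of 2, and 3 under TMM, total-count scaling, a filter on low counts, adjusted p under 0.1, or each file alone. Leaving out a sample gave 1 to 4. No fit called a member lower. Of the companion genes, 2 were called higher and 5 lower. With edgeR these were 0 and 0, at a fold minimum of 2 they were 1 and 1, and leaving out a sample gave 1 to 5 higher (1 without control 2 or Rx-Dicer 3, 5 without control 3) and 3 to 5 lower (3 without control 2 or control 3). Across all genes edgeR called 8 of 17954, with 2313 at an unadjusted p under 0.05.

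Samples of the 2 genotypes are different embryos, described in the study as littermates, and no label says whether the same number means the same litter. Deviations of same-numbered samples correlated at 0.173, 0.033 and -0.132, and those of differently numbered samples at -0.17 to 0.16. The main fit therefore did not pair samples by number, but these values cannot exclude a shared litter or batch. The replicate block left 3 members called higher, with Pax2 added (log2 fold change 3.27, adjusted p = 0.00520) and Otx2 not called (0.79, adjusted p = 0.60). Only small differences turned direction, none of them called; the cause was not tested. Otx2os1 was 0.10 with the second file alone and -0.34 to 0.45 when a sample was left out, Otx1 -0.29 to 0.15, Myo5a -0.008 to 0.125 and Rab27a -0.233 to 0.029. With 3 samples per genotype and at most 6 raw reads per library, Vax2, Tbx5 and Tyrp1 cannot show a difference at this depth.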
